A study of Homo sapiens with 6 samples.

Results

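The genes described here are 7 of the 17088 in the table: the membrane regulators CD55, CD46 and CD59 and the secreted components C3, CFB, C1R and C1S. They were chosen by name, with results of the comparison below already known, and CD55 in particular was known to differ between the groups. Their differences are therefore given as a description, with no p-value printed for any of the 7. How many of them passed a threshold is stated beside the share over all genes tested, and nothing is read from it. RNA was sequenced from MDA-MB-231, a mesenchymal human breast cancer line without hormone receptors, carrying either a vector for the noncoding RNA RPPH1 (VecRPPH1, 3 libraries) or its control vector (VecNC, 3 libraries). RPPH1 RNA is the catalytic core of RNase P, which processes precursor tRNAs. Neither the promoter of the vector nor whether each line was a pool or a clone was stated, and the labels do not say whether replicates were separate cultures, so errors measure only the spread between libraries, which may be technical.

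Complement is a cascade of plasma proteases that tags cell surfaces with fragments of C3 and can end in a pore through the membrane. The classical branch starts with the C1 complex, in which the proteases C1r and C1s are activated in turn, and the alternative branch amplifies C3 cleavage with factor B. Human cells limit the attack on their own surface with membrane regulators, of which CD55 speeds the decay of the enzymes that cleave C3, CD46 serves as cofactor for the inactivation of deposited fragments, and CD59 blocks assembly of the pore. Tumour cells often carry these regulators and can secrete complement components themselves.

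RPPH1 itself was not analysed here, so its own transcript gives no check of the overexpression. The library totals recovered from the deposited values ran from 17603126 to 18274890 fragments in VecRPPH1 and from 18204469 to 18817269 in VecNC. VecNC replicate 1 was the outlying library over all tested genes, with a score of -10.93 on the leading principal component, where the other 5 scored between -0.1074 and 4.402. Of the 4 high markers of the line, VIM was separate and lower in VecRPPH1, at 2585 to 2624 FPKM against 2674 to 2743 FPKM in VecNC. KRT18 was separate and higher, at 160.8 to 163.0 FPKM in VecRPPH1 and 152.0 to 160.4 FPKM in VecNC. Over all tested genes, 5.88% were separate and lower and 7.98% separate and higher. CD44 and AXL overlapped between the groups. Among low markers, ESR1 was at no more than 0.0173 FPKM in any library. EPCAM, listed as low, was at 6.17 to 7.29 FPKM in VecRPPH1 and 6.57 to 7.21 FPKM in VecNC. FPKM is a fragment number scaled to gene length and library total, so levels can be set side by side between genes. Among 7 leukocyte markers, the summed level was 106.2 to 109.0 FPKM in VecRPPH1 and 108.4 to 112.0 FPKM in VecNC, nearly all of it CD68. PTPRC stayed at or under 0.158 FPKM, and CD3E and MS4A1 were at or near 0. CSF1R was at 0.947 to 1.34 FPKM in VecRPPH1 and 0.848 to 1.40 FPKM in VecNC. LYZ was at 0.110 to 0.343 FPKM in VecRPPH1 and 0.0713 to 1.13 FPKM in VecNC. CD14 is described further below.

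Promoter windows from RefSeq (GRCh38.p14), 250 bases before to 50 after a start site, were matched for 5 of the 7 genes, namely CD55, CD46, CD59, CFB and C1R. Those of CD55, CD46 and CFB are shown because CD55 and CD46 are regulator genes of the same stretch of chromosome 1 whose levels behaved differently between the groups, and CFB had the largest difference towards a lower level. Capitals mark motif matches on either strand: in CD55 and CD46 the letters TGACG (the CRE half-site), GGGCGG (GC box) and CCAAT, and in CFB the ISRE core GAAANNGAA, the kappaB motif, the GAS motif TTCNNNGAA and TATAAA.
CD55, chr1:207321428-207321727, plus strand: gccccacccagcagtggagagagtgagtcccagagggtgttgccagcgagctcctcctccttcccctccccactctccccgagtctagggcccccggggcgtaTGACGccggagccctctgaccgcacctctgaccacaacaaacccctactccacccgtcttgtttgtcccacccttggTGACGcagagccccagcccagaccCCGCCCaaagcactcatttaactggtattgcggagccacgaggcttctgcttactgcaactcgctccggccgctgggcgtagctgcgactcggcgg
CD46, chr1:207751788-207752087, plus strand: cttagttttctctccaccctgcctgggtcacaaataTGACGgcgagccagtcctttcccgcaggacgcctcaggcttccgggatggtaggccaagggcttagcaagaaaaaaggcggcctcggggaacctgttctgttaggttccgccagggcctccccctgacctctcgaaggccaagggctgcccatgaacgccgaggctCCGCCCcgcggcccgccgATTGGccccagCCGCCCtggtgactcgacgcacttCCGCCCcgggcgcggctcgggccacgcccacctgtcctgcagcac
CFB, chr6:31945845-31946144, plus strand: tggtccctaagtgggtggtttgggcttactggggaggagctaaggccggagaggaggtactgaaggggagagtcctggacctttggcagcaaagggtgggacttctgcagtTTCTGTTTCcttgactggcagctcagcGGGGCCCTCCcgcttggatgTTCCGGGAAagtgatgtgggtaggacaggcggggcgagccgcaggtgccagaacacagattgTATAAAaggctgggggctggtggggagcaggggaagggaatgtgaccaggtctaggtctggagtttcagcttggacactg

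With the start base counted as 0, CD55 held TGACG at -147 and -70 and a GC box at -46, and CD46 held TGACG at -214, GC boxes at -48, -19 and 5 and a CCAAT box at -30. In CFB the ISRE core began at -139, the kappaB match at -112, the GAS match at -92 and TATAAA at -30, and none of these matches overlapped. Of 34943 distinct RefSeq windows of this length, 24.5% held TGACG, 44.9% a GC box, 34.6% CCAAT, 11.3% the kappaB motif, 7.66% the GAS motif, 8.1% the ISRE core and 11.6% TATAAA. The AP-1 motif TGANTCA (7.72% of windows) and the full CRE, TGACGTCA (1.84%), were searched too and did not match these 3 windows. A match describes the letters only.

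All 7 genes had at least 1 FPKM in every library and were tested. The membrane regulators stood above the secreted components, and the order of levels was the same in both groups apart from CD46 and CD59, which overlapped with each other in each group. In VecRPPH1, CD46 averaged 64.9 FPKM, CD59 64.8, CD55 54.8, C3 38.3, CFB 30.0, C1R 7.65 and C1S 3.19 FPKM. In VecNC, CD59 averaged 66.4 FPKM, CD46 63.1, CD55 46.1, C3 41.6, CFB 33.7, C1R 6.83 and C1S 3.54 FPKM. Every other neighbouring pair in these orders was separated in all 3 libraries of the group. Between the groups, 2 of the 7 genes did not overlap, as was the case for 13.9% of all tested genes. Bulk values cannot tell fewer cells with a transcript from less RNA per cell.

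**Figure D1:**
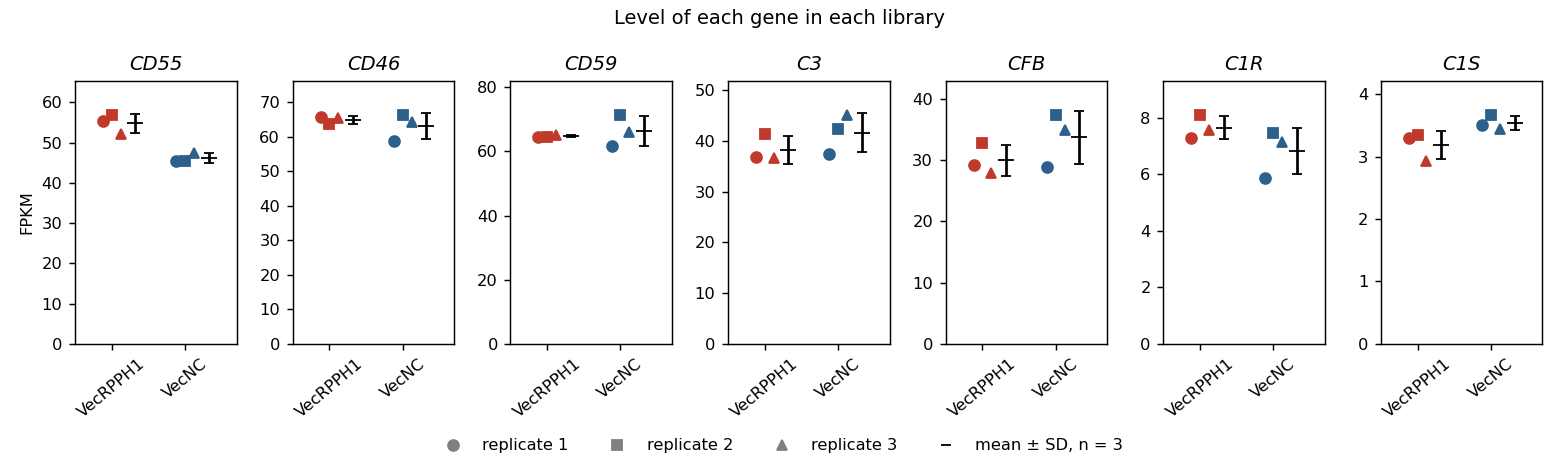
FPKM of each gene (vertical axis, from 0) in the 3 VecRPPH1 libraries (red) and the 3 VecNC libraries (blue), with the mean and SD in black and symbols for the replicate number. CD55 lay above VecNC in every VecRPPH1 library and C1S below it, while the other 5 genes overlapped between the groups.

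CD55 had the largest difference of the 7. It was at 55.4, 56.8 and 52.2 FPKM in VecRPPH1 replicates 1, 2 and 3, against 45.3, 45.4 and 47.5 FPKM in VecNC. The groups did not overlap, and the gap between the lowest VecRPPH1 and the highest VecNC library exceeded the range within either group. The mean was 54.8 ± 2.35 FPKM in VecRPPH1 and 46.1 ± 1.25 FPKM in VecNC (SD, n = 3 each, here and below), a ratio of means of 1.19 and a log2 fold change of 0.25 (SE 0.0437; limma on log2(FPKM + 1), VecRPPH1 minus VecNC). In absolute size on this scale, which understates changes of low genes, the difference exceeded that of 98.8% of the 10909 genes tested. CD55 was chosen with this difference known, so its rank is a description and not a test. The values rest on 3033 to 3364 fragments in VecRPPH1 and 2726 to 2875 in VecNC, so counting alone gives an error near 1.76% in VecRPPH1 and 1.89% in VecNC, below the library spread of 4.28% in VecRPPH1 and 2.70% in VecNC. CD55 lies on chromosome 1 (207321376 to 207386804, plus strand, GRCh38, GENCODE 29), and its product is held to the membrane by a glycosylphosphatidylinositol (GPI) anchor.

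CD46, a transmembrane protein encoded further along chromosome 1 (207752057 to 207795513, plus strand), differed little. It was at 65.5, 63.6 and 65.4 FPKM in VecRPPH1, against 58.8, 66.2 and 64.3 FPKM in VecNC. The groups overlapped, and VecNC replicate 1 was the lowest of the 6 libraries. The log2 fold change was 0.041 (SE 0.0476), with -0.0078 without VecNC replicate 1 and 0.0762 without VecNC replicate 2.

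CD59, on chromosome 11 (33703010 to 33736491, minus strand), carries a GPI anchor as CD55 does. It was at 64.5, 64.6 and 65.2 FPKM in VecRPPH1, against 61.7, 71.3 and 66.2 FPKM in VecNC. All VecRPPH1 values lay inside the range of VecNC. Their SD was 0.531% of the mean, under the counting error of 1.04%, while the SD in VecNC was 7.21%. The log2 fold change was -0.033 (SE 0.0508), with 0.019 without VecNC replicate 2 and -0.0835 without VecNC replicate 1. The protein-coding gene AL049629.2, not analysed here, overlaps CD59 by 19458 bases on the same strand.

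Set against its companions within each library, CD55 made up 29.9%, 30.7% and 28.6% of the summed FPKM of the 3 regulators in VecRPPH1, against 27.4%, 24.8% and 26.7% in VecNC. The sum itself was 185.5, 185.0 and 182.8 FPKM in VecRPPH1 and 165.8, 182.8 and 178.0 FPKM in VecNC, so VecRPPH1 replicate 3 and VecNC replicate 2 nearly coincided. The ratio of CD55 to CD46 averaged 0.846 ± 0.0475 in VecRPPH1 and 0.732 ± 0.0430 in VecNC, and that of CD55 to CD59 averaged 0.847 ± 0.0402 in VecRPPH1 and 0.697 ± 0.0523 in VecNC. Both ratios were separated between the groups. They contain the CD55 values above and are no further evidence for them.

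**Figure D2:**
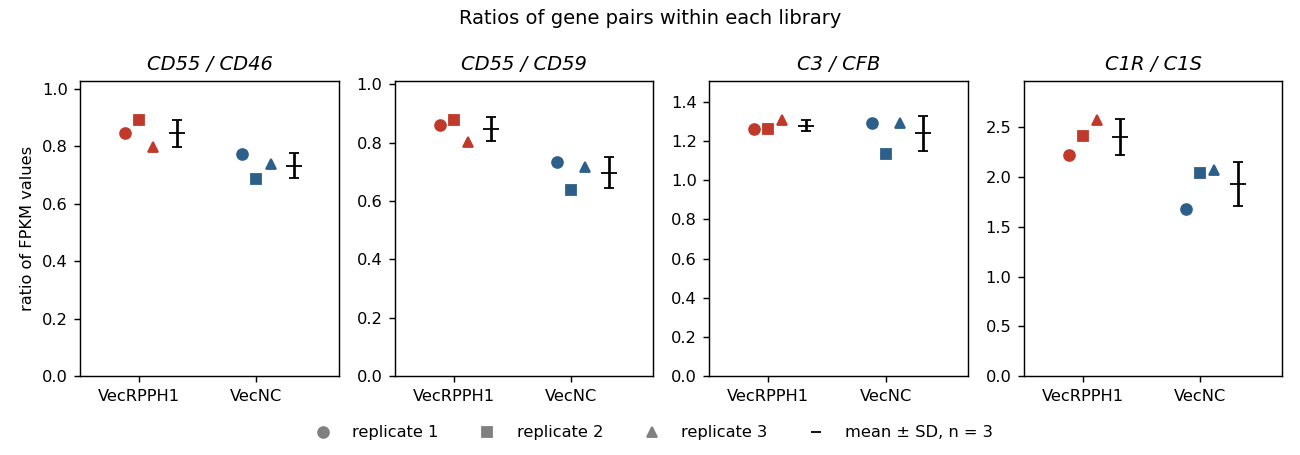
Ratio of FPKM values of gene pairs (vertical axis, from 0) in each VecRPPH1 library (red) and VecNC library (blue), with mean and SD in black. CD55 per CD46, CD55 per CD59 and C1R per C1S were higher in every VecRPPH1 library, while C3 per CFB overlapped between the groups.

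C3, the central component cleaved in every branch, lies on chromosome 19 (6677704 to 6730562, minus strand). It was at 36.8, 41.5 and 36.6 FPKM in VecRPPH1, against 37.4, 42.4 and 45.1 FPKM in VecNC. The groups overlapped, with VecRPPH1 replicate 2 above VecNC replicate 1. The mean was 38.3 ± 2.75 FPKM in VecRPPH1 and 41.6 ± 3.88 FPKM in VecNC, a log2 fold change of -0.12 (SE 0.0711). The annotated span of C3 overlaps GPR108 by 649 bases on the same strand in GENCODE 29. GPR108 reached 36.1 FPKM, and how the authors assigned reads there is not stated.

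CFB encodes factor B, the protease zymogen of the alternative branch, and lies on chromosome 6 (31945650 to 31952084, plus strand). It was at 29.2, 32.8 and 28.0 FPKM in VecRPPH1, against 28.95, 37.3 and 34.9 FPKM in VecNC. Here too the groups overlapped through VecNC replicate 1. The mean was 30.0 ± 2.51 FPKM in VecRPPH1 and 33.7 ± 4.31 FPKM in VecNC, a log2 fold change of -0.16 (SE 0.0886). CFB overlaps its neighbour C2 by 23 bases, and C2 was at most 0.290 FPKM in any library. GENCODE 29 also places the protein-coding gene AL645922.1 over 6399 bases of CFB on the same strand, and its own level was not analysed here. How fragments in such overlaps were assigned is not given in the sources used here.

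C3 and CFB followed each other over the libraries. Within VecRPPH1 both were highest in replicate 2, and within VecNC both were lowest in replicate 1. Both features also held for CD55 and C1R, so they are not particular to this pair. Within VecNC, C3 was highest in replicate 3 at 45.1 FPKM, but CFB was highest in replicate 2 at 37.3 FPKM. The ratio of C3 to CFB was 1.26, 1.26 and 1.31 in VecRPPH1, against 1.29, 1.14 and 1.29 in VecNC, so it was nearly the same in every library but VecNC replicate 2. Without VecNC replicate 1, which stood apart over all genes, the log2 fold change was -0.19 for C3 and -0.26 for CFB. It was -0.0571 for C3 without VecNC replicate 3 and -0.0848 for CFB without VecNC replicate 2. The part of single libraries in these differences was not tested further.

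C1R encodes the protease that activates C1s, and lies on chromosome 12 (7080199 to 7092607, minus strand). It was at 7.30, 8.09 and 7.56 FPKM in VecRPPH1, against 5.89, 7.45 and 7.15 FPKM in VecNC. The groups overlapped by a narrow margin, and VecNC replicate 1 was well below the other 5 libraries. The log2 fold change was 0.15 (SE 0.0791), and 0.0585 without that library. The gene overlaps its relative C1RL by 3021 bases on the same strand, and C1RL was at most 2.83 FPKM in any library.

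C1S encodes the protease that cleaves C4 and C2, and lies on the same chromosome (6988259 to 7071032, plus strand). It was at 3.29, 3.35 and 2.93 FPKM in VecRPPH1, against 3.51, 3.66 and 3.45 FPKM in VecNC. The groups did not overlap, and VecRPPH1 replicate 3 was the lowest library. The mean was 3.19 ± 0.227 FPKM in VecRPPH1 and 3.54 ± 0.110 FPKM in VecNC, a log2 fold change of -0.12 (SE 0.0641), and -0.0704 without VecRPPH1 replicate 3. With 151 to 176 fragments in VecRPPH1 and 185 to 195 in VecNC, counting alone gives an error of 7.72% in VecRPPH1 and 7.24% in VecNC, as large as the library spread of 7.10% in VecRPPH1 and larger than that of 3.12% in VecNC. The annotated span of C1S overlaps EMG1 by 9170 bases on the same strand and LPCAT3 by 30252 bases on the opposite strand. EMG1 reached 9.68 FPKM and LPCAT3 9.05 FPKM, both above C1S. Whether the authors counted by strand is not stated, and the part of these overlaps in the C1S values was not tested.

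The means of these partner proteases differed in opposite directions. The ratio of C1R to C1S was 2.22, 2.42 and 2.58 in VecRPPH1, against 1.68, 2.04 and 2.07 in VecNC. Every VecRPPH1 library lay above every VecNC library. The means were 2.40 ± 0.180 in VecRPPH1 and 1.93 ± 0.218 in VecNC. The ratio was computed after the values were seen. It contains the C1S values, which were separate by themselves, and is no further evidence for them. Counting alone gives an error of 5.285% in VecRPPH1 and 5.519% in VecNC for C1R, besides that of C1S above.

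**Figure D3:**
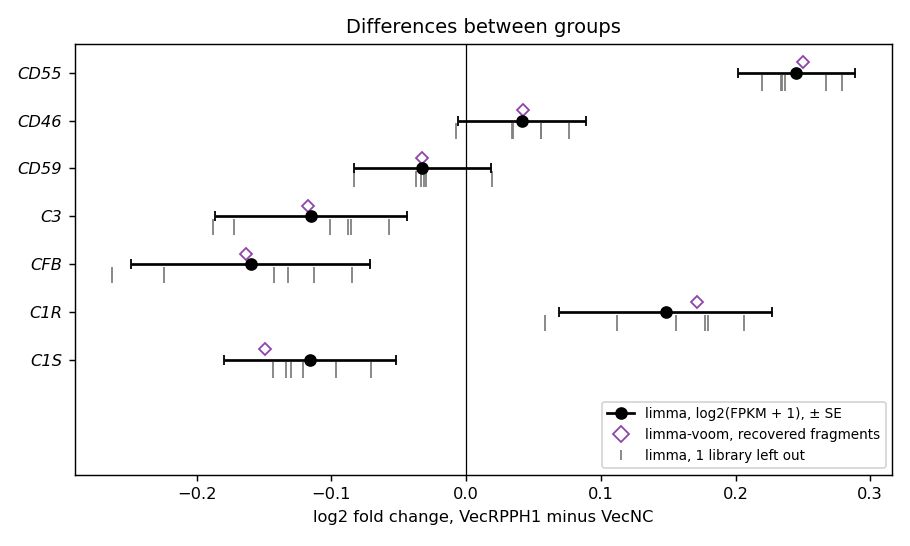
Log2 fold change of each gene, VecRPPH1 minus VecNC (horizontal axis), from limma on log2(FPKM + 1) with its SE (black), from limma-voom on recovered fragments (open diamonds) and from limma with 1 library left out (grey ticks). CD55 stayed between 0.22 and 0.28 with 1 library left out, while CD46 and CD59 crossed 0.

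Across the whole table, limma called 0 of the 7 genes at an adjusted p under 0.05, where it called 0.00917% of the 10909 genes tested, and 1 of the 7 had an unadjusted p under 0.05, beside 7.97% of all genes tested (869 genes). On fragments recovered from the values, limma-voom called 1 of the 7, CD55, with a higher level in VecRPPH1, where it called 0.156% of all genes, 0.0642% as higher and 0.0917% as lower. Of the genes without overlap between groups, CD55 was higher, as were 7.98% of all tested genes, and C1S lower, as were 5.88%. Means were higher in 3 and lower in 4 of the 7, and the median of the 7 log2 fold changes was -0.033, beside 0.0046 over all genes tested. Nothing is read from these counts, since the genes were chosen with this comparison known.

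**Figure D4:**
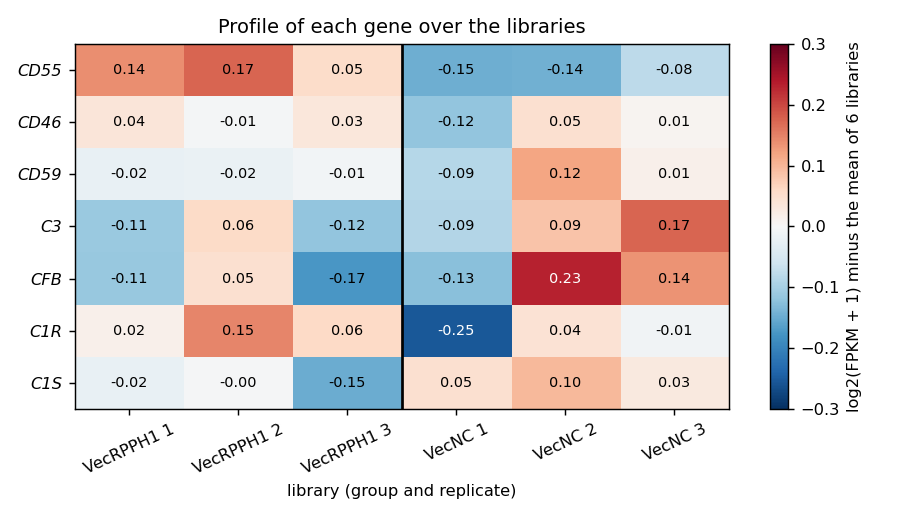
Log2(FPKM + 1) of each gene (rows) in each library (columns), minus the gene's mean over the 6 libraries, with red above and blue below that mean. CD55 was positive in every VecRPPH1 library and negative in every VecNC library, C3 and CFB changed sign together, and C1R was lowest in VecNC replicate 1 at -0.25.

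Likeness of pattern was measured as the root mean square difference, over the 6 libraries, between log2(FPKM + 1) profiles each centred on its own mean. Among 10687 genes, the closest to CD55 were BDNF, a neurotrophin, at 0.0123, the lysosomal fucosidase gene FUCA1 at 0.0230 and the deubiquitinase gene ATXN3 at 0.0348, where the profile of CD55 itself had a root mean square of 0.129. The closest to C3 were ECE1, which encodes an endothelin-converting enzyme, at 0.0248, MIEF2, which encodes a mitochondrial fission factor, at 0.0325, and HAGHL at 0.0329. The closest to CFB were the integrin gene ITGA5 at 0.0359, KCTD11 at 0.0379 and the fibronectin gene FN1 at 0.0402. C3 ranked 36th in likeness to CFB at 0.0669, and CFB ranked 214th in likeness to C3. CD55 was far from both, at 0.194 from C3 and 0.230 from CFB.

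Of 56 further complement-related genes, 44 were listed, 12 were not analysed here, and 8 of the listed ones passed the filter (1 FPKM in at least 3 libraries). None of the 8 was called by limma or limma-voom, and 1 of the 8 had an unadjusted p under 0.05 by limma, beside 7.97% of all tested genes. The log2 fold change was above 0 for 7 and below 0 for 1, with a median of 0.061 over the 8. ADGRE5 was the single one of the 8 without overlap, beside 13.9% of all tested genes, and the one with the unadjusted p under 0.05. It encodes CD97, an adhesion receptor that binds CD55 and is not itself a complement component. It was at 108.3, 110.5 and 103.4 FPKM in VecRPPH1, against 91.97, 99.5 and 102.4 FPKM in VecNC. VecRPPH1 replicate 3 and VecNC replicate 3 nearly met, and the log2 fold change was 0.13 (SE 0.0471), which limma did not call (adjusted p 0.548).

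The other high genes of this list were C1QBP, a mostly mitochondrial protein that binds the globular heads of C1q, and THBD, the thrombin receptor thrombomodulin. C1QBP averaged 189.9 ± 2.10 FPKM in VecRPPH1 and 188.8 ± 15.1 FPKM in VecNC. THBD averaged 54.6 ± 3.30 FPKM in VecRPPH1 and 52.4 ± 5.42 FPKM in VecNC. Soluble regulators were lower, with C4BPB, the beta chain of C4-binding protein, at 12.6 ± 0.755 FPKM in VecRPPH1 and 11.6 ± 0.496 FPKM in VecNC. CLU, which encodes clusterin, was at 2.43 ± 0.140 FPKM in VecRPPH1 and 2.15 ± 0.205 FPKM in VecNC. All 4 of these genes overlapped between the groups.

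**Figure D5:**
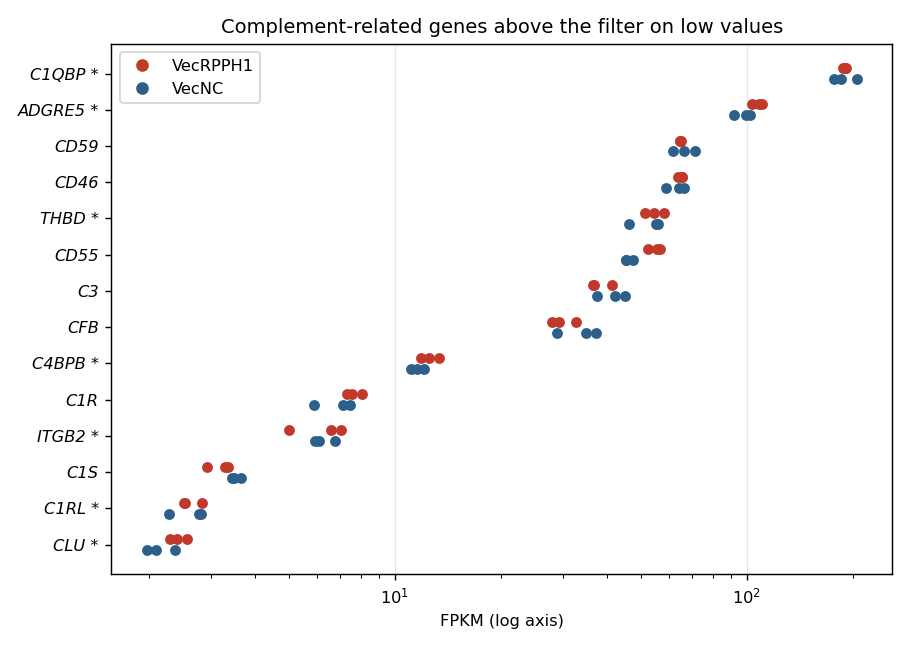
FPKM on a log axis of the 7 genes and of 7 of the 8 other complement-related genes that passed the filter (marked with an asterisk), with VecRPPH1 libraries in red above VecNC libraries in blue. C1QBP and ADGRE5 were the most abundant, and the membrane regulators stood above C3, CFB, C1R and C1S.

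The remaining 36 listed complement-related genes were below 1 FPKM in every library and had no test. They included C2 at 0.137 ± 0.0539 FPKM in VecRPPH1 and 0.196 ± 0.0824 FPKM in VecNC, and C5, which starts the pore, at 0.601 ± 0.0883 FPKM in VecRPPH1 and 0.673 ± 0.0238 FPKM in VecNC. The C1 inhibitor gene SERPING1 was at 0.139 ± 0.0886 FPKM in VecRPPH1 and 0.233 ± 0.0797 FPKM in VecNC. The receptor genes C3AR1 and C5AR1 averaged 0.245 and 0.211 FPKM in VecRPPH1, and 0.192 and 0.172 FPKM in VecNC. C4A and C4B, near-identical copies whose reads could be split between them, averaged 0.114 and 0.0444 FPKM in VecRPPH1, and 0.0910 and 0.0267 FPKM in VecNC.

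The enzymes that build and attach the GPI anchor shared by CD55 and CD59 were followed as a list of 30 genes, of which 27 were tested. None was called by limma or limma-voom, and 1 of the 27 had an unadjusted p under 0.05 by limma, beside 7.97% of all tested genes. Log2 fold changes were above 0 for 11 and below 0 for 16. The median of their log2 fold changes was -0.034, beside 0.0046 over all genes. The groups did not overlap in 3 of the 27, beside 13.9% of all tested genes. PIGN, an ethanolamine phosphate transferase, was at 2.55 ± 0.116 FPKM in VecRPPH1 and 2.94 ± 0.274 FPKM in VecNC. PIGX, a subunit of the enzyme that adds the first mannose, was at 11.98 ± 0.339 FPKM in VecRPPH1 and 12.7 ± 0.328 FPKM in VecNC. PGAP3, which remodels the lipid of the anchor, was at 3.31 ± 0.0760 FPKM in VecRPPH1 and 2.93 ± 0.225 FPKM in VecNC. The most abundant were PIGT and GPAA1, subunits of the transamidase that joins anchor to protein, and DPM1 of dolichol-phosphate mannose synthase. PIGT averaged 67.2 ± 1.44 FPKM in VecRPPH1 and 66.7 ± 0.421 FPKM in VecNC, GPAA1 46.8 ± 0.785 FPKM in VecRPPH1 and 51.1 ± 3.52 FPKM in VecNC, and DPM1 46.8 ± 0.899 FPKM in VecRPPH1 and 46.6 ± 2.59 FPKM in VecNC.

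Other proteins with the same anchor did not share one direction. Of 34 genes, 20 were tested, none was called by limma or limma-voom, 5 of the 20 had an unadjusted p under 0.05 by limma, beside 7.97% of all tested genes, and means were higher for 12 and lower for 8, with a median log2 fold change of 0.033. Groups were separate in 3 genes with higher and 4 with lower levels in VecRPPH1, beside 7.98% and 5.88% of all tested genes. The higher ones were the prion protein gene PRNP at 111.0 ± 1.21 FPKM in VecRPPH1 and 107.0 ± 2.24 FPKM in VecNC, the CD2 ligand CD58 at 5.93 ± 0.262 FPKM in VecRPPH1 and 5.40 ± 0.304 FPKM in VecNC, and LY6K at 2.21 ± 0.259 FPKM in VecRPPH1 and 1.83 ± 0.0456 FPKM in VecNC. The lower ones included the semaphorin gene SEMA7A at 27.8 ± 0.855 FPKM in VecRPPH1 and 31.1 ± 1.64 FPKM in VecNC, and MELTF, melanotransferrin, at 27.1 ± 2.04 FPKM in VecRPPH1 and 30.3 ± 0.793 FPKM in VecNC. The urokinase receptor gene PLAUR was at 48.9 ± 0.928 FPKM in VecRPPH1 and 51.2 ± 0.730 FPKM in VecNC, and the glypican gene GPC1 at 4.55 ± 0.218 FPKM in VecRPPH1 and 5.29 ± 0.480 FPKM in VecNC. The adenosine-forming enzyme gene NT5E was the most abundant, at 251.4 ± 5.33 FPKM in VecRPPH1 and 254.2 ± 14.2 FPKM in VecNC, and LY6E was at 61.0 ± 4.52 FPKM in VecRPPH1 and 58.1 ± 2.26 FPKM in VecNC.

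Among markers of other cells that make complement, CD14, a monocyte marker, was at 3.08 to 3.46 FPKM in VecRPPH1 and 2.12 to 2.57 FPKM in VecNC, and CD68 at 102.0 to 103.7 FPKM in VecRPPH1 and 103.8 to 108.0 FPKM in VecNC. Of the 7 leukocyte markers, CD14 alone was separate and higher in VecRPPH1, beside 7.98% of all tested genes. CD68 alone was separate and lower, beside 5.88%. The 5 stromal markers summed to 4.42 to 5.55 FPKM in VecRPPH1 and 4.22 to 4.82 FPKM in VecNC, and the 4 listed hepatocyte markers to 22.1 to 22.8 FPKM in VecRPPH1 and 21.4 to 26.2 FPKM in VecNC, nearly all of it SERPINA1. The hepatocyte markers ALB, APOA1 and FGB stayed under 0.5 FPKM, and the stromal markers DCN and LUM under 0.2 FPKM, while COL1A1 was at 3.48 to 4.22 FPKM in VecRPPH1 and 3.64 to 4.09 FPKM in VecNC. Of the 5 stromal markers, 2 were separate and higher in VecRPPH1, beside 7.98% of all tested genes. PDGFRB was at 0.651 to 0.754 FPKM in VecRPPH1 and 0.345 to 0.580 FPKM in VecNC. DCN was at 0.0234 to 0.0396 FPKM in VecRPPH1 and 0 to 0.0156 FPKM in VecNC. Both were below 1 FPKM in every library, so neither was tested, and the share over tested genes does not cover such low genes. Of the 4 listed hepatocyte markers, APOA1 alone was separate and higher, by a narrow margin, beside 7.98% of all tested genes. It was at 0.1682 to 0.342 FPKM in VecRPPH1 and 0.0545 to 0.1676 FPKM in VecNC, and was not tested either. No share of separate genes was computed for genes under the filter. The part of these markers in the values above was not tested.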

How the data were processed

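RNA of 3 VecRPPH1 and 3 VecNC libraries was made into stranded mRNA libraries, per the labels' protocols. Per the submitters' processing notes, the tools were Trimmomatic, HISAT2 and Cufflinks and the build GRCh38, with no versions. The deposited values are FPKM made by the authors, 1 column per library. Whole fragments, and with them library totals, were recovered for 10909 of the 10909 genes tested, within 0.01 fragments and a relative 3e-08.

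The test was limma 3.58.1 (R 4.3.3), fitted to log2(FPKM + 1) of every gene that reached 1 FPKM in 3 or more libraries, with group as the single term and a variance trend over the mean. This scale understates changes of low genes. The p-values were adjusted by Benjamini-Hochberg over all 10909 genes, and 0.05 was the threshold. An exact two-sided permutation test of 3 against 3 libraries cannot go below 0.1 and was not used. Scripts were tested on simulated data. Alternatives were a pseudocount of 0.1, no filter, a minimum of 5 FPKM, a replicate block, limma-voom on recovered fragments, median-of-ratios rescaling and leaving out each library. Replicates differed by more than counting noise, with chi-square over degrees of freedom between 2.21 and 8.36.

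Members and lists were chosen with earlier results of these data known. From each list the text names, among tested genes, those called, those without overlap and the 3 highest by mean, and for CD55, C3 and CFB the 3 genes most like each. C4BPB, CLU and the genes under the filter were named after their values were seen. The values of 1 tested gene of the pathway are not reported here. Counting errors cover counting only.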

Additional observations from a re-analysis of the deposited data

How the results depend on the processing

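Of the 7 genes, 5 kept the sign of their log2 fold change under every alternative run (C1S was not tested at a minimum of 5 FPKM). For CD55 and C1S, whose groups did not overlap, leaving out a library could not have changed the sign. Leaving out a library gave 0.2196 to 0.279 for CD55, -0.1879 to -0.0571 for C3, -0.2629 to -0.0848 for CFB, 0.0585 to 0.2064 for C1R and -0.1434 to -0.0704 for C1S. CD46 ran from -0.0078 to 0.0762 and CD59 from -0.0835 to 0.019, so both changed sign. CD55 was called by limma-voom alone, at 0.2503, which took the count of called members to 1. The count over all genes was 0 with no filter, 8 at a minimum of 5 FPKM, 17 by limma-voom and 0 to 7 with a library left out, 7 being without VecNC replicate 1. Of 18 other named genes, 13 kept their sign. The exceptions with a library left out were C1QBP (-0.037 to 0.073), DPM1 (-0.0327 to 0.0459), NT5E (-0.0554 to 0.0247), PIGT (-0.0048 to 0.0256) and THBD (-0.0242 to 0.1106). The causes were not tested. C1S had the fewest fragments of the 7 genes, at 151 to 176 in VecRPPH1 and 185 to 195 in VecNC. C1R was next, at 347 to 379 in VecRPPH1 and 289 to 354 in VecNC. For C1R in VecNC the library spread of 12.16% exceeded the counting error of 5.519%.

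With the replicate number as a block, 0 genes were called. Whether replicate numbers pair the samples is not given by the labels. Deviations from the group means correlated at 0.0566, 0.018 and -0.1044 for numbers 1, 2 and 3. VecRPPH1 replicate 2 correlated best with VecNC replicate 3, at 0.1986. With 3 libraries per group, these correlations cannot decide on pairing.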
